A study of Mus musculus with 10 samples.

Results

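The 10 genes described here encode core subunits of the Polycomb repressive complexes, and all 10 were found by gene symbol among the 23420 genes counted. Ezh1, Ezh2, Eed and Suz12 belong to Polycomb repressive complex 2 (PRC2). Ring1, Rnf2, Bmi1, Pcgf2, Cbx7 and Cbx8 belong to Polycomb repressive complex 1 (PRC1). RNA sequencing had been run on cells sorted from the bone marrow of C57BL/6 mice, in 4 groups that carried either a Vav-driven knockout of Mta2 (labelled Mta2_VavKO, Mta2 KO below) or the control genotype. The groups were small pre-B Mta2 KO (3 libraries), small pre-B control (3), pro-B Mta2 KO (2) and pro-B control (2). Small pre-B cells had been sorted as B220+ IgM- CD43- cells of small size, and pro-B cells as B220+ IgM- CD43+ cells. Vav regulatory elements drive expression across blood cells, so the knockout was not limited to B cells. The labels give no age, sex, litter or pooling of the animals, so p-values measure only the spread between these libraries, which may be technical.

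PRC2 methylates a lysine in the tail of histone H3, a mark of silenced genes, through either of its alternative catalytic subunits, Ezh2 or Ezh1. Eed binds the finished mark and stimulates the enzyme, and Suz12 holds the complex together. PRC1 attaches ubiquitin to a core histone through Rnf2 or Ring1, each paired with a PCGF protein such as Bmi1 or Pcgf2, and the Cbx proteins of canonical PRC1 read the PRC2 mark. In early B cells Ezh2 is known to be needed for normal rearrangement of distal immunoglobulin heavy chain segments, and Bmi1 for keeping the Cdkn2a locus silent. Mta2 is a subunit of another repressor, the nucleosome remodelling and deacetylase (NuRD) complex.

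The total count per library was 17805507 to 25821264 in small pre-B Mta2 KO, 18502193 to 38392136 in small pre-B controls, 48988304 to 52011415 in pro-B Mta2 KO and 48860391 to 52127004 in pro-B controls. Mta2 itself was at 199, 179 and 198 CPM (counts relative to the total of a library, in parts per 1e6, scaled between libraries) in the small pre-B KO libraries, against 438, 246 and 412 CPM in small pre-B controls. It was at 162 and 166 CPM in the pro-B KO libraries, against 436 and 375 CPM in pro-B controls. Every KO library was thus below every control library of its cell type (log2 fold change -0.93 ± 0.19 SE, adjusted p = 0.042 in small pre-B cells, and -1.31 ± 0.24, adjusted p = 0.212 in pro-B cells, edgeR). Small pre-B control 3 stood apart from the other libraries, with 0.953% of its counts in histone genes against 0.0122 to 0.0399% in the other libraries. Small pre-B KO 1 and 2 held Xist RNA at 2518 and 2941 CPM and Y-linked RNA at 8.13 and 0.0790 CPM. The other 8 libraries held Y-linked RNA at 224 to 674 CPM, with Xist RNA at up to 31.4 CPM (small pre-B control 1). All small pre-B controls thus held Y-linked RNA, so high Xist RNA goes in part with the knockout in small pre-B cells. The labelled cell types were checked against marker sums. B lineage markers (10 genes) summed to 9299 to 12245 CPM in small pre-B KO, 8837 to 13245 CPM in small pre-B controls, 1402 to 1891 CPM in pro-B KO and 1908 to 2210 CPM in pro-B controls. Myeloid and granulocyte markers (15 genes) summed to 227 to 502 CPM in small pre-B KO, 133 to 399 CPM in small pre-B controls, 17097 to 25159 CPM in pro-B KO and 10874 to 10994 CPM in pro-B controls. In the pro-B libraries the myeloid and granulocyte list thus had a higher sum than the B lineage list. Sums over unlike genes do not measure how much RNA each lineage gave.

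RefSeq gives promoter windows for all 10 subunit genes (build GRCm38.p6). The 250 bases before the annotated start are printed for the 4 subunit genes whose window holds the letters CCAAT on either strand, because 3 of them (Ezh2, Suz12 and Cbx7) were higher in small pre-B than in pro-B cells below. Capitals mark CCAAT, or ATTGG where it lies on the other strand. CCAAT is the core of the box bound by the factor NF-Y.
Ezh2 (chr6:47595031-47595280, minus strand): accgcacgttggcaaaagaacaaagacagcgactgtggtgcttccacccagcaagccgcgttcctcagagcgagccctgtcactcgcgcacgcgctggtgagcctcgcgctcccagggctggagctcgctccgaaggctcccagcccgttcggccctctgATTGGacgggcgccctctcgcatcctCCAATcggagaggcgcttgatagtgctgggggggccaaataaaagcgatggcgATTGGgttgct
Suz12 (chr11:79992856-79993105, plus strand): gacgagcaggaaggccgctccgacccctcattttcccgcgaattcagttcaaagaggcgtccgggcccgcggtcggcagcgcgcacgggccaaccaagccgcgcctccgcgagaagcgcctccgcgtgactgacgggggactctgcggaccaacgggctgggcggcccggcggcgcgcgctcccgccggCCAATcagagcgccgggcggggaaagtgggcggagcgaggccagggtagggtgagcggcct
Cbx7 (chr15:79932647-79932896, minus strand): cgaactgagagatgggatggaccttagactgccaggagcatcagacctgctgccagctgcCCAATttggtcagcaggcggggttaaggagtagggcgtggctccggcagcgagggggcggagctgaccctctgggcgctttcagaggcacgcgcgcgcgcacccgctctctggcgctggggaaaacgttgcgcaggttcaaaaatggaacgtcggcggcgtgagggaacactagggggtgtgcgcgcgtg
Cbx8 (chr11:119040914-119041163, minus strand): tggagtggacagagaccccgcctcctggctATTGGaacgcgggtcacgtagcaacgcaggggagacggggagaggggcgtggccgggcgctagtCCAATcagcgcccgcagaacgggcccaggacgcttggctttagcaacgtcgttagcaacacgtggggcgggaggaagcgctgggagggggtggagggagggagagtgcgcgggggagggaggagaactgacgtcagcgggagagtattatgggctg
The Ezh2 window held 3 matches, starting 90, 64 and 11 bases before the start, the Cbx8 window held 2, and the Suz12 and Cbx7 windows held 1 each. Ezh1 and Rnf2, which were also higher in small pre-B cells below, held 0, and Cbx8 did not differ there. The letters thus did not separate the subunits that were higher from the others. Such letters are common: 33.8% of the 32851 RefSeq windows of the same length held CCAAT on either strand, against 4 of the 10 subunit genes. GGGCGG, the core of the GC box, was in 7 of the 10 and in 32.7% of all windows, CACGTG, an E-box, in 3 of the 10 (Bmi1, Pcgf2 and Cbx8) and 6.02%, and CAGGTG, another E-box, in 1 of the 10 (Ezh1) and 17.2%. These are matches of letters and not measured binding sites. The RefSeq start of Pcgf2 lies 849 bases inside the gene model the authors counted.

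Levels of different genes are compared per kilobase of counted exon sequence. Ezh2 had the highest level of the 10 in all 4 groups, at 129 ± 11 CPM per kilobase in small pre-B KO (SD, n = 3), 143 ± 8.3 in small pre-B controls (n = 3), 79.9 ± 7.5 in pro-B KO (n = 2) and 108 ± 15 in pro-B controls (n = 2). These levels lay between percentiles 93.6 and 97.2 of the 14161 genes tested. Pcgf2 had the lowest level in all 4 groups, at 1.36 ± 0.16 CPM per kilobase in small pre-B KO, 0.556 ± 0.387 in small pre-B controls, 5.52 ± 0.35 in pro-B KO and 3.35 ± 0.26 in pro-B controls. In pro-B cells of both genotypes the order per kilobase was Ezh2, Suz12, Eed, Cbx7, Rnf2, Ezh1, Ring1, Bmi1, Cbx8 and Pcgf2, and no neighbours in it overlapped over their libraries, with 2 libraries a group. In small pre-B cells Rnf2 and Cbx7 stood above Eed. Rnf2, Suz12 and Cbx7 followed Ezh2 in small pre-B KO, and Cbx7, Suz12 and Rnf2 did so in small pre-B controls, but neighbours among these 3 overlapped over the libraries. Ezh1 and Ring1, and Bmi1 and Cbx8, were separate in small pre-B KO and overlapped in small pre-B controls.

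**Figure D1:**
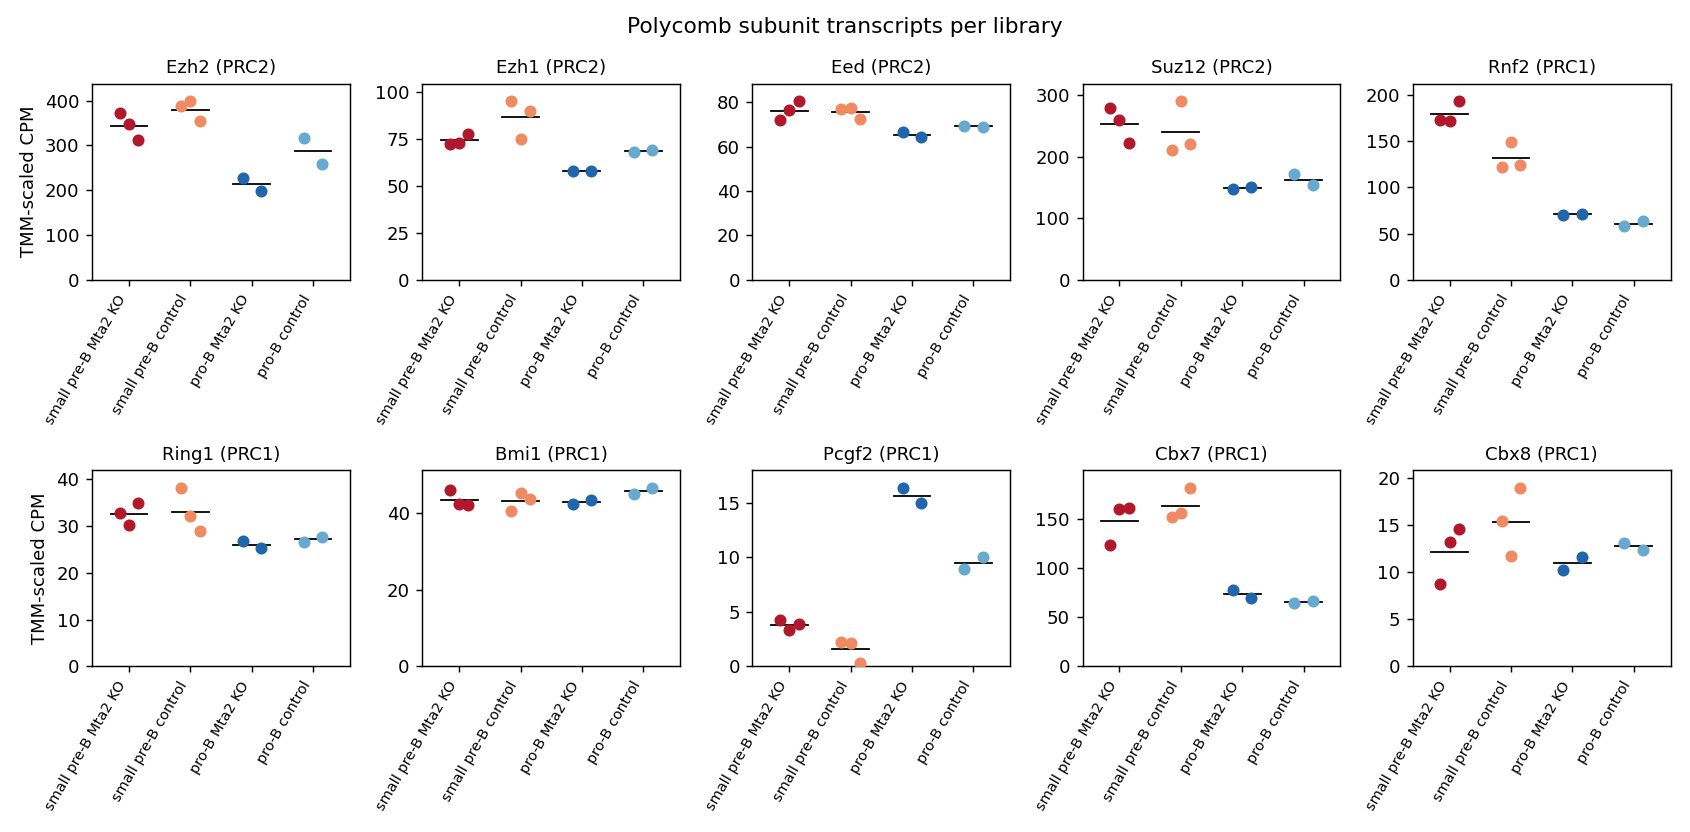
TMM-scaled CPM (y axis, linear from 0, own scale for each gene) of the 10 subunits in each library (points) with the group mean (line), in small pre-B Mta2 KO, small pre-B control, pro-B Mta2 KO and pro-B control from left to right. Rnf2 and Cbx7 are higher and Pcgf2 is lower in every small pre-B library than in every pro-B library, while Bmi1 lies between 40.6 and 46.6 CPM in all 10 libraries.

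The comparison of the stages asked how Polycomb transcripts differ between small pre-B cells and the earlier pro-B cells. Small pre-B cells are generally held to have mostly stopped dividing and to rearrange the light chain. Proliferation markers in these libraries are given below. In Mta2 KO cells, 6 of the 10 subunits differed at an adjusted p under 0.05: Ezh1, Ezh2, Suz12, Rnf2 and Cbx7 were higher in small pre-B cells and Pcgf2 was lower. The same 6 subunits differed in the same directions in controls. Differences at this stage were common, with 51.3% of all tested genes called in KO (24% higher and 27.3% lower) and 55.4% in controls (26% higher and 29.4% lower), so the share of subunits called was near that of all genes. The median log2 fold change of the 10 subunits was 0.34 in KO (all tested genes -0.02) and 0.31 in controls (all tested genes -0.02). The stage comparisons of both genotypes use separate libraries but 1 shared estimate of the spread. The share of all tested genes whose libraries did not overlap between the stages is not given. A lack of overlap stated below for single subunits thus describes their libraries alone.

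Among the PRC2 subunits, Ezh2, the main catalytic subunit of dividing cells, was present in KO at 372, 347 and 313 CPM in small pre-B cells, against 227 and 199 CPM in pro-B cells. Control levels were 387, 398 and 356 CPM in small pre-B cells, against 317 and 259 CPM in pro-B cells. The small pre-B libraries were above the pro-B libraries in both genotypes without overlap. The log2 fold change was 0.69 ± 0.13 (SE, adjusted p = 0.00208, edgeR) in KO and 0.40 ± 0.13 (adjusted p = 0.0253) in controls. In controls the call was lost without pro-B control 2 (0.26, adjusted p = 0.232), without small pre-B control 1 (0.39, adjusted p = 0.053), without small pre-B control 2 (0.38, adjusted p = 0.0529) and with the compared groups fitted alone (adjusted p = 0.0664).

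Suz12, the scaffold of PRC2, was present in KO at 279, 259 and 222 CPM in small pre-B cells, against 148 and 150.2 CPM in pro-B cells. In controls the levels were 211, 290.1 and 220.2 CPM in small pre-B cells, against 172 and 153 CPM in pro-B cells. Again every small pre-B library was the higher one. The log2 fold change was 0.77 ± 0.16 (adjusted p = 0.00355, edgeR) in KO and 0.56 ± 0.16 (adjusted p = 0.0143) in controls, and the call in controls was lost without pro-B control 2 (0.48, adjusted p = 0.114).

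Ezh1, the catalytic subunit typical of resting cells, was present in KO at 72.4, 73.1 and 77.8 CPM in small pre-B cells, against 58.2 and 58.0 CPM in pro-B cells. Control levels were 95.1, 75.1 and 90.1 CPM in small pre-B cells, against 67.9 and 69.1 CPM in pro-B cells. The stages did not overlap within a genotype, and small pre-B control 2 lay close to the small pre-B KO values. The log2 fold change was 0.36 ± 0.12 (adjusted p = 0.0278, edgeR) in KO and 0.34 ± 0.12 (adjusted p = 0.0309) in controls. In KO the call was lost without pro-B control 1 (adjusted p = 0.0501), pro-B control 2 (0.0504), pro-B KO 1 (0.124), pro-B KO 2 (0.131) or small pre-B KO 3 (0.0633). In controls it was lost without pro-B control 1 (adjusted p = 0.149), pro-B control 2 (0.123), pro-B KO 1 (0.0554), pro-B KO 2 (0.0553) or small pre-B control 1 (0.0828), with log2 fold changes of 0.27 to 0.35 over these fits of both genotypes.

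Eed, which reads the methyl mark, was present in KO at 72.2, 76.4 and 80.4 CPM in small pre-B cells, against 66.5 and 64.3 CPM in pro-B cells. In controls the levels were 77.2, 77.5 and 72.6 CPM in small pre-B cells, against 69.6 and 69.1 CPM in pro-B cells. The log2 fold change between the stages did not pass the threshold with edgeR in KO (0.22, 95% interval 0.01 to 0.43, adjusted p = 0.0713) or in controls (0.13, -0.08 to 0.34, adjusted p = 0.261). In KO it passed without small pre-B control 3 (0.22, adjusted p = 0.0346). The level of Ezh2 per kilobase was 6.33 to 8.07 times that of Ezh1 in small pre-B KO, against 5.39 and 6.14 times in pro-B KO. It was 6.20 to 8.34 times that of Ezh1 in small pre-B controls, against 5.89 and 7.34 times in pro-B controls. The ratios of the stages were separate in KO and overlapped in controls. The share of Ezh1 among Ezh1 and Ezh2 transcripts was between 10.7 and 15.7% in every library.

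Among the PRC1 subunits, Rnf2, the main ubiquitin ligase of PRC1, was present in KO at 173, 172 and 193 CPM in small pre-B cells, against 70.5 and 71.6 CPM in pro-B cells. Control levels were 123, 149 and 125 CPM in small pre-B cells, against 57.7 and 63.7 CPM in pro-B cells. The stages were far apart, with a log2 fold change of 1.34 ± 0.12 (2.53-fold, adjusted p = 3.51e-05, edgeR) in KO and 1.12 ± 0.12 (2.18-fold, adjusted p = 8.9e-05) in controls. Its paralog Ring1 was present in KO at 32.8, 30.3 and 35.05 CPM in small pre-B cells, against 26.8 and 25.3 CPM in pro-B cells. In controls the levels were 38.1, 32.2 and 28.9 CPM in small pre-B cells, against 26.6 and 27.8 CPM in pro-B cells. Ring1 did not pass the threshold between the stages in KO (0.33, 95% interval 0.01 to 0.64, adjusted p = 0.0762, edgeR) or in controls (0.28, -0.03 to 0.60, adjusted p = 0.11). It passed without small pre-B control 3 (adjusted p = 0.0331 in KO and 0.0297 in controls) and, in KO, without small pre-B control 1 (adjusted p = 0.0495). The share of Rnf2 among Ring1 and Rnf2 transcripts was 78.1 to 79.2% in small pre-B KO, 68.4 to 75.7% in small pre-B controls, 63.9 to 65.5% in pro-B KO and 59.3 to 60.6% in pro-B controls.

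The PCGF subunits Bmi1 and Pcgf2 are paralogs that assemble into alternative forms of PRC1. Pcgf2 was present in KO at 4.27, 3.36 and 3.91 CPM in small pre-B cells (74, 85 and 84 counts), against 16.4 and 14.97 CPM in pro-B cells (899 and 755 counts). Control levels were 2.28, 2.13 and 0.312 CPM in small pre-B cells (41, 53 and 11 counts), against 8.98 and 10.002 CPM in pro-B cells (470 and 556 counts). Pcgf2 was lower in all small pre-B libraries than in all pro-B libraries. The log2 fold change was -2.03 ± 0.55 (adjusted p = 0.0134, edgeR) in KO and -2.63 ± 0.58 (adjusted p = 0.00419) in controls. In KO the call was lost without pro-B KO 1 (-1.97, adjusted p = 0.0639) and without pro-B KO 2 (-2.09, adjusted p = 0.0536). Bmi1 was present in KO at 46.1, 42.5 and 42.1 CPM in small pre-B cells, against 42.6 and 43.5 CPM in pro-B cells. In controls the levels were 40.6, 45.3 and 43.8 CPM in small pre-B cells, against 45.2 and 46.6 CPM in pro-B cells. The stages overlapped, and the log2 fold change was 0.02 (95% interval -0.21 to 0.24, adjusted p = 0.896) in KO and -0.08 (-0.31 to 0.14, adjusted p = 0.49) in controls. The ratio of Bmi1 to Pcgf2 per kilobase was 8.49 to 9.998 in small pre-B KO, 14.0 to 111 in small pre-B controls, 2.05 and 2.29 in pro-B KO and 3.67 and 3.97 in pro-B controls. The value of 111 is that of small pre-B control 3, where Pcgf2 had 11 counts.

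The chromodomain subunit Cbx7 was present in KO at 123, 159.7 and 161 CPM in small pre-B cells, against 77.7 and 69.5 CPM in pro-B cells. Control levels were 152, 156 and 181 CPM in small pre-B cells, against 64.6 and 66.7 CPM in pro-B cells. The small pre-B libraries were all higher, with a log2 fold change of 1.01 ± 0.15 (2.01-fold, adjusted p = 0.000441, edgeR) in KO and 1.31 ± 0.15 (2.48-fold, adjusted p = 0.000105) in controls. Cbx8, another chromodomain subunit, was present in KO at 8.71, 13.2 and 14.5 CPM in small pre-B cells, against 10.2 and 11.6 CPM in pro-B cells. In controls the levels were 15.4, 11.7 and 18.9 CPM in small pre-B cells, against 13.1 and 12.3 CPM in pro-B cells. The Cbx8 libraries overlapped between the stages, and its log2 fold change was 0.15 (95% interval -0.42 to 0.73, adjusted p = 0.64) in KO and 0.27 (-0.31 to 0.85, adjusted p = 0.389) in controls.

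**Figure D2:**
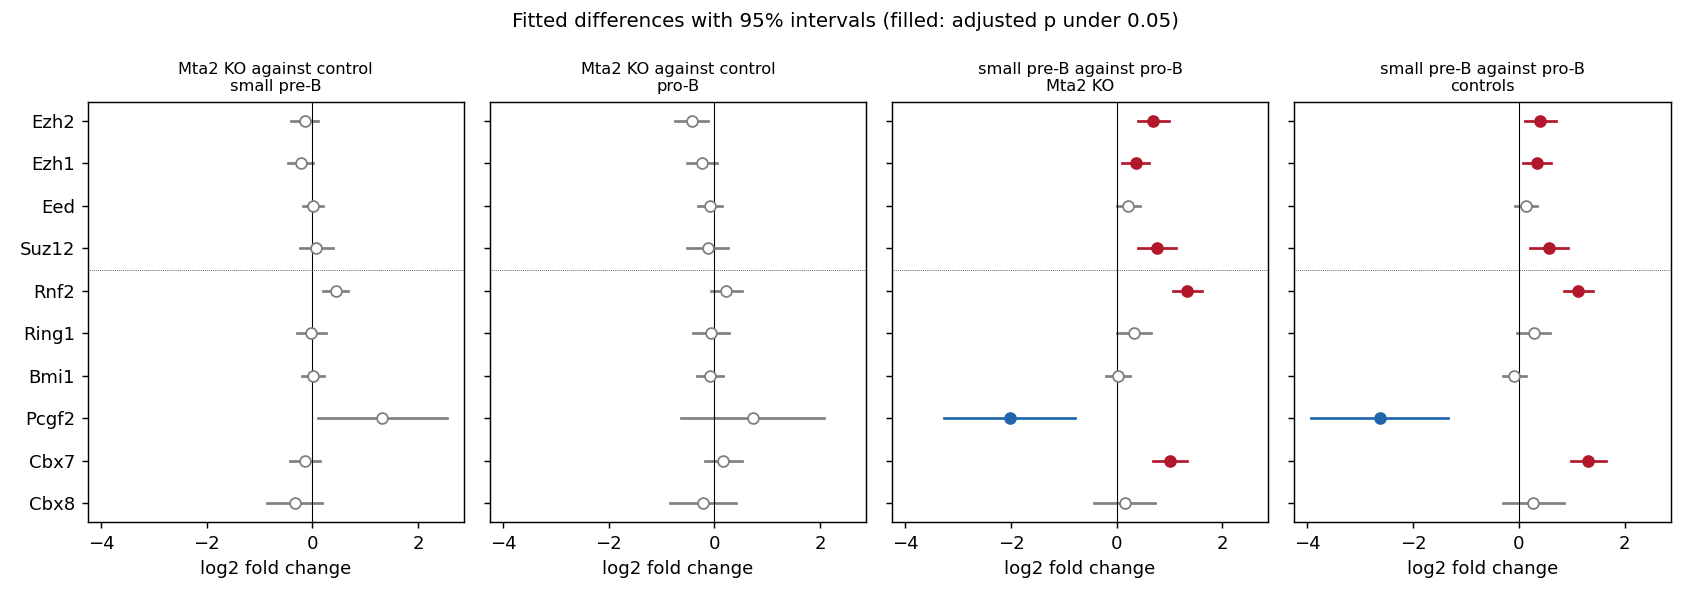
Fitted log2 fold changes (x axis) of the 10 subunits (rows, PRC2 above the dotted line) with 95% intervals, from left to right for Mta2 KO against control in small pre-B and in pro-B cells and for small pre-B against pro-B cells in Mta2 KO and in controls. Filled points passed an adjusted p of 0.05, red for higher and blue for lower, and all of them are in the stage comparisons.

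The subunits were also described by their shares in whole families of transcripts. Among the 6 PCGF transcripts, Pcgf2 made up 1.88 to 2.30% in small pre-B KO, 0.160 to 1.21% in small pre-B controls, 9.65 to 10.6% in pro-B KO and 5.53 to 6.14% in pro-B controls. Pcgf3, a subunit of variant PRC1, had 24.3 to 28.2% in small pre-B KO, 29.1 to 36.3% in small pre-B controls, 17.7 to 18.5% in pro-B KO and 19.0 to 20.3% in pro-B controls. Bmi1 had 18.2 to 19.6% in small pre-B KO, 16.9 to 19.3% in small pre-B controls, 21.8 to 22.1% in pro-B KO and 21.95 to 22.6% in pro-B controls. These shares are descriptions of RNA and were not tested.

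**Figure D3:**
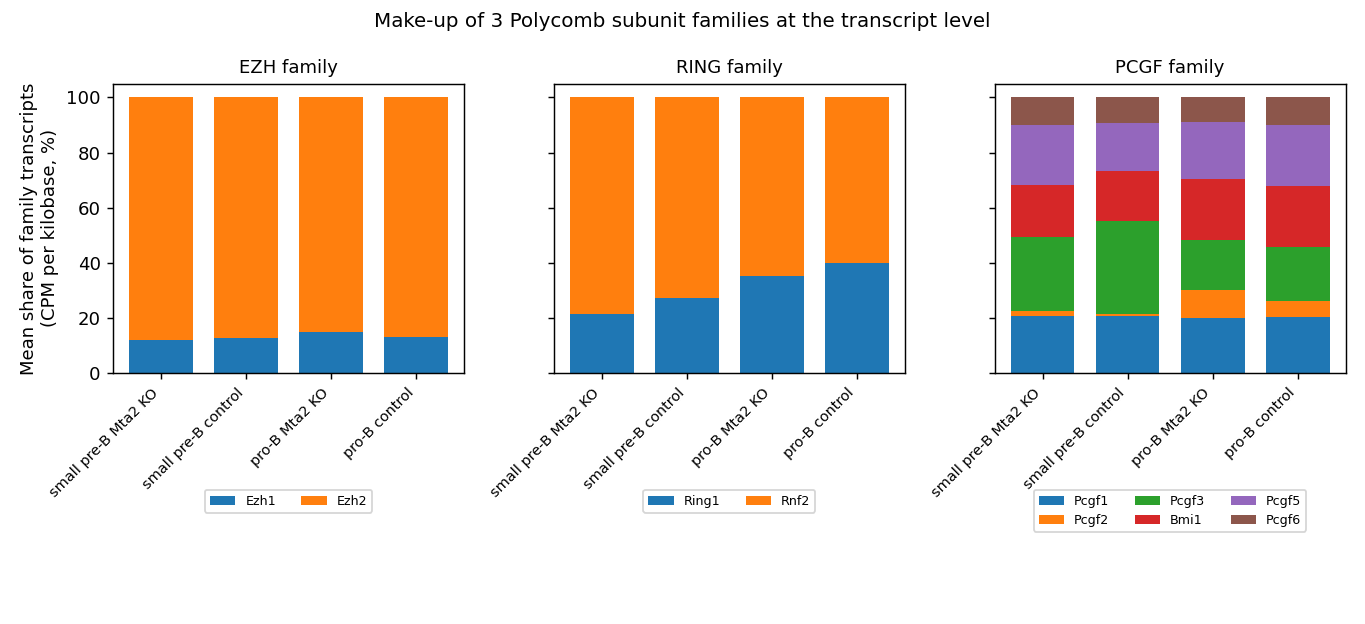
Mean share (y axis, %) of each gene in the transcripts of its family, per kilobase of counted exons, as stacked bars for small pre-B Mta2 KO, small pre-B control, pro-B Mta2 KO and pro-B control (3, 3, 2 and 2 libraries). Rnf2 and Pcgf3 take larger shares and Pcgf2 a smaller one in small pre-B than in pro-B groups, while Ezh1 stays at mean shares of 12.2 to 14.8%.

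The stage results sit beside large differences in the other cells and in the proliferation markers of the sorted populations, and in bulk RNA fewer cells of a type cannot be told apart from less RNA per cell. All 15 tested myeloid and granulocyte markers were lower in small pre-B cells in both genotypes, as were 7 of 14 T cell markers in KO and all 14 in controls. Plasmacytoid dendritic cell markers (8 genes) summed to 494 to 617 CPM in small pre-B KO, 312 to 426 CPM in small pre-B controls, 3878 to 4219 CPM in pro-B KO and 3682 to 3924 CPM in pro-B controls. Of these markers 7 of 8 were lower in small pre-B KO and all 8 in small pre-B controls. Of 10 natural killer markers 6 were lower in small pre-B KO and all 10 in small pre-B controls (0 to 10 in KO and 6 to 10 in controls under the alternatives), and erythroid markers fell in 3 of 6 tested in each genotype. Of 20 proliferation markers, 11 were lower and 1 higher (E2f2, log2 fold change 1.92 ± 0.20) in small pre-B KO, and 12 were lower and 1 higher (E2f2, 1.31 ± 0.20) in small pre-B controls. These 20 markers summed to 2721 to 4863 CPM in small pre-B KO and 3166 to 5047 CPM in small pre-B controls. Their sums were 5819 to 6431 CPM in pro-B KO and 6582 to 7873 CPM in pro-B controls. The small pre-B libraries thus still held RNA of these markers. Of 10 B lineage markers, 8 were higher in small pre-B cells in each genotype. The part of these cells in the subunit results was not tested, and the sequencing depth, which was higher in every pro-B library, cannot be told apart from the stage.

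Other Polycomb genes differed between the stages in both directions, as did all tested genes. Of these, 51.3% were called in KO (24% higher and 27.3% lower) and 55.4% in controls (26% higher and 29.4% lower). Of 8 tested partner subunits of PRC2, 3 were higher and 2 lower in small pre-B KO, and 3 were higher and 3 lower in small pre-B controls. Mtf2, which helps PRC2 to bind chromatin, was higher (log2 fold change 1.44 ± 0.10 in KO and 1.31 ± 0.10 in controls), and so was Jarid2, with the same role (1.09 ± 0.12 in KO and 1.07 ± 0.12 in controls). Rbbp4 passed as higher in KO (0.56 ± 0.16) and Lcor in controls (1.399 ± 0.53). Rbbp7, a histone-binding subunit also found in NuRD, was lower (-0.62 ± 0.15 in KO and -0.84 ± 0.15 in controls), as was Phf19 (-1.15 ± 0.41 in KO and -1.59 ± 0.41 in controls). Of 15 alternatives, the call of Phf19 was lost under 7 in KO and 1 in controls, that of Rbbp4 under 3, that of Rbbp7 in KO under 1 and that of Lcor under 10.

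Of 22 other PRC1 subunits, 7 were higher and 3 lower in small pre-B KO, and 6 were higher and 3 lower in small pre-B controls. The shares of all tested genes called were 51.3% in KO and 55.4% in controls. Of variant PRC1, Bcor (1.16 ± 0.14 in KO and 1.28 ± 0.15 in controls) and Pcgf3 (0.79 ± 0.14 in KO and 1.01 ± 0.14 in controls) were higher. Phc3, a polyhomeotic subunit of canonical PRC1, was higher too (0.72 ± 0.12 in KO and 0.76 ± 0.12 in controls). Scml2 was lower (-3.71 ± 0.57 in KO and -2.70 ± 0.48 in controls), as was E2f6, a transcription factor that recruits variant PRC1 (-0.55 ± 0.18 in KO and -0.54 ± 0.18 in controls), though this call was lost under 6 of 15 alternatives in each genotype. Scml2 had only 5 counts in all over the small pre-B KO libraries and 21 over the small pre-B controls. Of 9 tested genes of enzymes that remove the Polycomb marks and their cofactors, 5 were higher and 2 lower in each genotype. Mysm1, a histone deubiquitinase needed for B cell development in mice, was higher (0.91 ± 0.15 in KO and 1.28 ± 0.16 in controls). So were the deubiquitinase gene Bap1 (0.72 ± 0.11 in KO and 0.57 ± 0.11 in controls) and the demethylase gene Kdm6a (1.22 ± 0.29 in KO and 0.97 ± 0.28 in controls). Asxl1, a cofactor of Bap1, was lower (-0.47 ± 0.12 in KO and -0.51 ± 0.12 in controls). In KO the call of Kdm6a was lost under 1 alternative, the libraries with Y-linked RNA alone. That alternative leaves out small pre-B KO 1 and 2, which held Xist RNA, and the part of this in the Kdm6a difference was not tested. In controls the call of Kdm6a was lost under 2 alternatives, and that of Asxl1 was lost under 1 in KO.

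Of 20 textbook Polycomb target genes, 14 had enough counts to be tested. In small pre-B KO 1 was higher and 7 were lower, and in small pre-B controls 2 were higher and 6 lower. Over all tested genes, 51.3% were called in KO (27.3% lower) and 55.4% in controls (29.4% lower). Hoxa9, a homeobox gene of early progenitors, was lower (-4.42 ± 0.41 in KO and -3.78 ± 0.38 in controls), as were Hoxa7 (-3.92 ± 0.54 in KO and -2.99 ± 0.50 in controls) and Hoxa5 (-3.00 ± 0.52 in KO and -2.39 ± 0.49 in controls). Gata2, a regulator of stem and mast cells, was lower (-4.85 ± 1.03 in KO and -5.16 ± 1.04 in controls). Bmp4, a secreted growth factor, was higher (3.15 ± 0.70 in KO and 5.01 ± 0.80 in controls), a call lost in KO without pro-B KO 2 and with the libraries with Y-linked RNA alone. Bmp4 had 9 counts in all over the pro-B KO libraries and 3 over the pro-B controls. Gata2 had 9 counts in all over small pre-B KO and 9 over small pre-B controls. The log2 fold changes of both thus rest on few counts in 1 stage. The median log2 fold change of the targets was -0.93 in KO and -1.06 in controls, against -0.02 for all tested genes in each. Marker sums of other lineages, given above, moved with these genes, and their part was not tested.

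**Figure D4:**
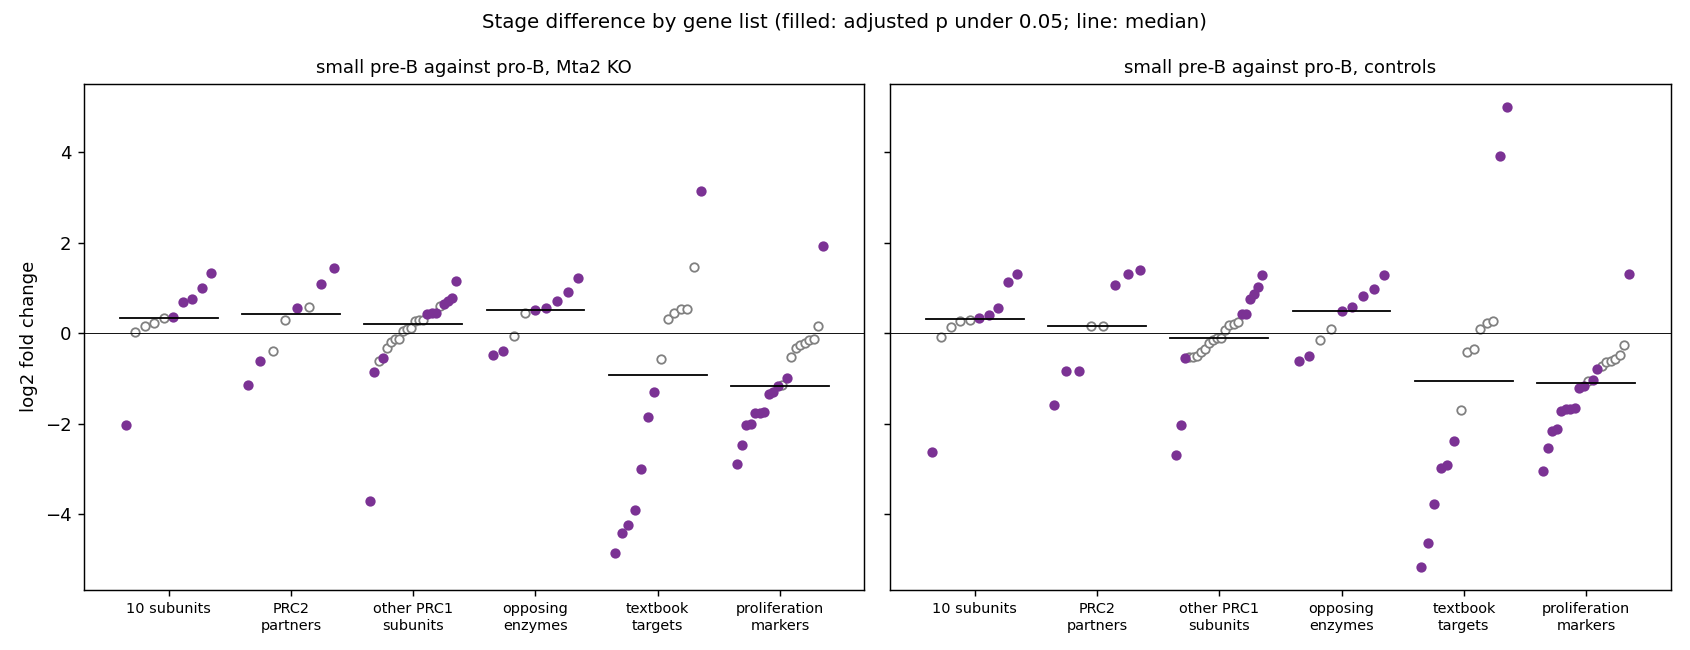
Log2 fold change (y axis) of small pre-B against pro-B cells for each tested gene (point, in rising order within its list) of the 10 subunits and 5 gene lists, in Mta2 KO (left) and controls (right). Filled points passed an adjusted p of 0.05 and the line is the median, which is 0.34 in KO and 0.31 in controls for the 10 subunits and below 0 in both for the targets and proliferation markers.

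The knockout comparison asked whether loss of Mta2 moves Polycomb transcripts. In small pre-B cells, KO 1 and 2 held high Xist RNA, while every control held Y-linked RNA. The part of this in the knockout values was not tested. No subunit passed the threshold in either cell type with edgeR. In pro-B cells the same fit did not call Mta2 itself (-1.31, adjusted p = 0.212), so a lack of calls there does not show a lack of change. In small pre-B cells 0 of 10 were called, against 3.02% of all tested genes, 2 of 10 had an unadjusted p under 0.05 against 24.7%, and the DESeq2 Wald test called 1 of 10, against 13.8% of the genes to which it gave an adjusted p. In pro-B cells 0 of 10 were called, against 0.0353% of all tested genes, 1 of 10 had an unadjusted p under 0.05 against 6.45%, and DESeq2 called 0 of 10, against 1.32%. The median log2 fold change of the subunits was -0.003 in small pre-B cells and -0.09 in pro-B cells, against 0.01 and -0.01 for all tested genes.

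Rnf2 and Pcgf2 were the 2 subunits whose small pre-B KO libraries were all above the small pre-B controls, a separation that 13.3% of all tested genes showed. Rnf2 had the level values given above and a log2 fold change of 0.44 (95% interval 0.20 to 0.68, adjusted p = 0.0571, edgeR), just short of the threshold. It passed with DESeq2 (0.43, adjusted p = 0.00527) and without small pre-B control 2 (0.54, adjusted p = 0.0183), and its adjusted p was 0.0615 to 0.195 under the other alternatives. DESeq2 and the fit without small pre-B control 2 also called more of all tested genes than the main fit, as given below. In pro-B cells the log2 fold change of Rnf2 was 0.23 (-0.06 to 0.52, adjusted p = 0.955, edgeR). The level of Pcgf2 in small pre-B KO, 3.36 to 4.27 CPM, compared with 0.312 to 2.28 CPM in small pre-B controls (log2 fold change 1.33, 95% interval 0.11 to 2.55, adjusted p = 0.173, edgeR). Without small pre-B control 3, which has the lowest value, it was 0.80 (adjusted p = 0.0737). In pro-B KO Pcgf2 was at 14.97 and 16.4 CPM, against 8.98 and 10.002 CPM in pro-B controls (0.72, -0.63 to 2.08, adjusted p = 1). It passed when the pro-B groups were fitted alone (0.72, adjusted p = 0.022, edgeR), a fit with a spread from 4 libraries. That fit also called more of all tested genes than the main fit, as given below. T cell markers (14 genes) summed to 170 to 264 CPM in small pre-B KO, against 23.0 to 95.5 CPM in small pre-B controls, and 6 of 14 were higher, led by Cd3e (5.49 ± 0.68, adjusted p = 0.0207, edgeR). Cd3e had 676 counts in all over small pre-B KO and only 16 over small pre-B controls. No T cell marker was called with the small pre-B groups fitted alone, with the libraries with Y-linked RNA alone, or with any 1 of the pro-B libraries, small pre-B control 1 or small pre-B KO 1 left out, and 1 to 11 were called under the other alternatives. The sums of plasmacytoid dendritic cell markers, given above, were in all small pre-B KO libraries above those in small pre-B controls. Most of these sums was Tcf4 (mean 403 CPM in KO against 299 in controls), followed by Cox6a2 (117 against 30.5). Bst2 also had a higher mean in KO (18.2 against 9.30 CPM). Siglech, Ccr9, Klk1, Cd209a and Cd209d had lower means in KO, and the median log2 fold change of the list was -0.66. Of these 8 markers 1 was called, Cd209a, which was lower (-5.17 ± 0.72, adjusted p = 0.0254, edgeR), a call lost under 8 of 15 alternatives. Cd209a had 1 count in all over small pre-B KO and 51 over small pre-B controls, so its fold change rests on few counts. Myeloid and granulocyte markers were higher in sum in pro-B KO than in pro-B controls, as given above, with 0 of 15 called, and the part of either in the subunit values was not tested.

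Of the other 8 subunits, Ezh2 was at 227 and 199 CPM in pro-B KO, against 317 and 259 CPM in pro-B controls, so that both KO libraries were lower (log2 fold change -0.43, 95% interval -0.75 to -0.12, unadjusted p = 0.0127, adjusted p = 0.511, edgeR). In small pre-B cells its libraries overlapped between the genotypes (-0.15, -0.40 to 0.11, adjusted p = 0.458). Both pro-B KO libraries of Ezh1 were below the pro-B controls (-0.24, -0.52 to 0.04), and the small pre-B libraries of Ezh1 overlapped (-0.22, -0.45 to 0.01). Cbx8 had -0.33 (-0.85 to 0.18) in small pre-B cells and -0.22 (-0.85 to 0.41) in pro-B cells, and Cbx7 had -0.14 (-0.42 to 0.15) and 0.16 (-0.18 to 0.51). Suz12 had 0.08 (-0.24 to 0.39) in small pre-B cells and -0.13 (-0.51 to 0.26) in pro-B cells. The narrowest intervals were those of Eed, at 0.01 (-0.18 to 0.20) in small pre-B cells and -0.08 (-0.31 to 0.14) in pro-B cells, and of Bmi1, at 0.01 (-0.19 to 0.21) and -0.09 (-0.34 to 0.15). Ring1 had -0.02 (-0.30 to 0.26) in small pre-B cells and -0.06 (-0.40 to 0.28) in pro-B cells. With 2 libraries a group in pro-B cells, 9 of the 10 subunits had KO libraries that did not overlap the controls, 3 higher and 6 lower, and so did 55.5% of all tested genes, 27.4% higher and 28.1% lower.

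The knockout effect in small pre-B cells was also set against that in pro-B cells, by the difference of the log2 fold changes. None of the 10 subunits passed with edgeR or DESeq2, 0 had an unadjusted p under 0.05, and 0% of all tested genes were called by edgeR (6.4% at an unadjusted p under 0.05) and 0.412% by DESeq2. The largest difference was that of Pcgf2 (0.60, 95% interval -1.20 to 2.41, adjusted p = 0.868), followed by Cbx7 (-0.30, -0.75 to 0.15, adjusted p = 0.792) and Ezh2 (0.29, -0.12 to 0.70, adjusted p = 0.791).

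The other Polycomb genes gave few calls between the genotypes, as did all tested genes. None of the 8 PRC2 partners, the 22 other PRC1 subunits and the 9 opposing enzymes passed in either cell type. Of all tested genes, 3.02% were called in small pre-B cells and 0.0353% in pro-B cells. These lists thus do not stand out from all genes. With the pro-B groups fitted alone, 1 other PRC1 subunit and 1 opposing enzyme were called as higher in KO. That fit also called more of all tested genes, as given below. Those with the smallest p in small pre-B cells included Bcorl1 (0.80 ± 0.20, adjusted p = 0.0605), Pcgf3 (-0.41 ± 0.12, adjusted p = 0.0882) and Mysm1 (-0.44 ± 0.13, adjusted p = 0.0959). Of the 14 tested target genes, 1 was higher in small pre-B KO, Igf2bp3, an RNA-binding protein of fetal haematopoiesis (0.87 ± 0.19, adjusted p = 0.0492), and 0 passed in pro-B KO. The call of Igf2bp3 was lost under 12 of 16 alternatives, with an adjusted p of up to 0.259. It held with DESeq2, with its size factors, with no filter and without small pre-B control 2.

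As a description of likeness, log2 CPM was correlated over the 10 libraries with that of 10776 other genes. The 3 genes most like Ezh2 were Scrib (Pearson r 0.994), Tmem108 (0.984) and P2rx3 (0.971), those most like Ezh1 were Tmem184c (0.973), Flad1 (0.970) and Hdac10 (0.965), and those most like Cbx7 were Cog3 (0.994), Brd1 (0.992) and Ccnc (0.992). The libraries share 2 stages and depth differs with stage, so a high r needs little more than a like difference between the stages.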

How the data were processed

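Per the labels, RNA was extracted with RNeasy columns, prepared with a TruSeq Stranded mRNA kit and sequenced on an Illumina HiSeq instrument. The authors deposited raw read counts per gene, made with featureCounts 1.4.3-p1 over exons of an mm10 annotation without a strand option, per the file headers. CASAVA 1.82, the aligner STAR and the build mm9 are listed in the submitters' processing notes. The deposited exon length in bases (another value per gene, per the file headers) was used for levels per kilobase. Small pre-B control 3 has 931 in its title but 919 in its file header. Samples of other genotypes and of the unselected pre-B stage were not analysed here.

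In edgeR 4.0.16 (R 4.3.3), filterByExpr (minimum count 10, minimum total 15) left 14161 of 23420 genes, all 10 subunits among them. A quasi-likelihood model with TMM scaling, robust dispersions and a mean for each of 4 groups was fitted to all 10 libraries, with Benjamini-Hochberg adjustment over all tested genes and a threshold of 0.05. Standard errors are the log2 fold change over the root of F, and 95% intervals use the t distribution with the fit's degrees of freedom. The fit was tested on simulated counts. Total counts of 17805507 to 52127004 put 3 counts at 0.0540 to 0.173 CPM, a floor for counting error alone, since the reads carry no molecular identifiers. Replicates of each group differed by more than sampling noise. Alternatives were DESeq2 1.42.0, its size factors in edgeR, no filter, the compared groups alone, the title number as a block, and leaving out each library. The use of the 8 libraries with Y-linked RNA alone was chosen after seeing the data. The subunits and lists were chosen with earlier results of these data known, and 1 gene of the list of other PRC1 subunits is not reported here. Named were all 10 subunits, Mta2, up to 4 called genes of each list in each direction with the smallest p (where none passed, up to 2), and the 3 genes most like Ezh2, Ezh1 and Cbx7 with a mean of at least 2 CPM (prior count 2), without predicted genes. Where a left-out library leaves 1 in a group, that library is assumed to vary like the others.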

Additional observations from a re-analysis of the deposited data

How the results depend on the processing

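The direction and call of Rnf2, Cbx7 and Ezh2 between the stages in Mta2 KO, and of Rnf2, Pcgf2 and Cbx7 in controls, held under every alternative run. In the main fit 51.3% of all tested genes were called between the stages in KO and 55.4% in controls. The shares under the alternatives are not given beside the subunit counts that follow. These counts thus describe the subunits alone and do not set them apart from all genes. In KO 4 to 8 were called with 1 library left out and 3 with the libraries with Y-linked RNA alone, where Ezh1 (adjusted p = 0.0827), Suz12 (0.0719) and Pcgf2 (0.141) lost their call. In controls 5 subunits were called without a filter and 4 with the compared groups alone, and 3 to 7 when 1 library was left out, 3 of them without pro-B control 2. Ezh1 in controls also missed the threshold without a filter (adjusted p = 0.0552), with the compared groups alone (0.099) and with Y-linked RNA alone (0.0577). Between the genotypes the compared groups alone called 1 subunit in pro-B cells, DESeq2 called 1 in small pre-B cells, and leaving out 1 library gave 0 to 1 there, the 1 being Rnf2 without small pre-B control 2.

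Counts over all genes moved more. For the knockout in pro-B cells (5 genes) they were 182 with DESeq2, 8 without a filter, 856 with the compared groups alone, 0 with Y-linked RNA alone and 0 to 25 with 1 library left out (0 when either pro-B control or pro-B KO 2 was dropped, 14 when small pre-B control 2 was and 25 when small pre-B control 3 was). For the knockout in small pre-B cells (428) they were 1869 with DESeq2, 0 with the compared groups alone, 0 with Y-linked RNA alone, and 1 to 1667 with 1 library left out (1 when small pre-B control 1 was dropped and 1667 when small pre-B control 2 was), each of the 10 libraries moving the count by over 1.5 times. The stage in KO (7261) gave 4672 to 8657 with 1 library left out, the lowest without pro-B KO 2, and the difference of the knockout effects (0) gave 58 with DESeq2 and 0 to 40 with 1 left out (40 without small pre-B control 2). The cause of these moves was not tested.

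Values that changed sign were all short of the threshold. For the knockout in small pre-B cells, Eed was -0.0051 and Bmi1 -0.0058 with DESeq2 size factors, Eed was -0.0039 and Bmi1 -0.0089 with DESeq2, and Suz12 was -0.11, Ring1 0.089 and Bmi1 -0.032 with Y-linked RNA alone. For the stage in KO, Bmi1 was -0.020 with DESeq2 size factors, -0.021 with DESeq2 and -0.033 with Y-linked RNA alone. For the difference of the knockout effects, Ezh1 was -0.0078 with DESeq2 size factors and -0.0074 with DESeq2, and Cbx8 was 0.15 with Y-linked RNA alone. With 1 library left out, the knockout in small pre-B cells ranged from -0.028 to 0.050 for Eed, -0.0091 to 0.23 for Suz12, -0.11 to 0.097 for Ring1 and -0.032 to 0.042 for Bmi1. Bmi1 ranged from -0.022 to 0.043 for the stage in KO, and the difference of the knockout effects ranged from -0.075 to 0.087 for Ezh1, -0.045 to 0.16 for Ring1 and -0.27 to 0.073 for Cbx8.

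With the title number as a replicate block, 0 genes were called for the knockout in pro-B cells, 153 in small pre-B cells and 0 for their difference, with 0 subunits called in each. Deviations of libraries with the same number correlated at 0.0147 in pro-B cells and at 0.102, 0.155 and 0.0449 in small pre-B cells. Those with unlike numbers correlated at -0.111 to 0.00175 in small pre-B cells. With 2 libraries a group, the pro-B values all have 1 size and cannot decide on a pairing. The labels do not say that the numbers mark litters or days, so the main fit did not take them to pair the samples. Each small pre-B KO library correlated best with the control of its own number, a hint from the data and not from the design. The stages share no number. Low counts limit Pcgf2 (11 to 85 counts in small pre-B libraries), and pairs of libraries limit every pro-B value.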
